A study of Mus musculus with 7 samples.

Results

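The 10 genes described here are the 4 myogenic regulatory factors Myod1, Myog, Myf5 and Myf6, the muscle acetylcholine receptor subunits Chrna1, Chrnb1, Chrnd and Chrng, the muscle caveolin Cav3, and Pax7. They were chosen by gene symbol, and each was measured by 1 probe set among 19505 named genes. Mouse embryonic fibroblasts (MEFs) were profiled on a 1-colour Clariom S array, with 7 arrays in 7 groups. The MEF array held untreated fibroblasts, with no virus. The cells of 3 further arrays had received retroviruses for Gata4, Tbx5 and 1 native Mef2c isoform: isoform 1 (GT/M1), isoform 2 (GT/M2) or isoform 6 (GT/M6). On the GT/M2TAD array isoform 2 was fused to the transactivation domain of MyoD. The siCtrl and siEp300 arrays held cells given the same kind of retroviruses plus a control siRNA or an siRNA for Ep300, which encodes the histone acetyltransferase p300. Titles of these 2 arrays name GT/M2, whereas their source names give GT/M2TAD, so whether they carry the MyoD domain is not settled. Transduced cells were collected after 1 week; no time is given for the MEF array. By the labels all transduced groups were given Gata4 and Tbx5, and none received an empty virus, the MyoD domain without Mef2c, or MyoD itself.

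MyoD and Myf5 commit cells to the skeletal muscle lineage, and myogenin, encoded by Myog, drives the differentiation of myoblasts, with Myf6 (MRF4) acting late in that programme. These basic helix-loop-helix factors pair with E proteins on the E-box hexamer, and they work together with Mef2 factors on muscle genes. MyoD is known for converting fibroblasts into skeletal muscle cells, in which receptor subunit genes are among the targets switched on. Mef2c is shared by the heart and skeletal muscle, so adding a MyoD domain to it raises the question whether skeletal genes come up along with cardiac ones.

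With 1 array per group there is no replicate spread, no test and no p-value, and each difference below lies between single arrays. All signals and differences are on the log2 scale. A gene is called 2-fold apart when its log2 difference is at least 1 and its higher value reaches the median of the named genes on its array. Those medians lay between 5.38 and 5.71. The 95th percentile of 5222 negative-control probes, between 8.43 and 9.33, serves as a second and stricter mark, which 23.7% to 29.6% of the named genes exceeded. Signals of different genes come from different probes and are not compared with each other. Fibroblast markers were above the stricter mark for 7 of 9 genes on the MEF array and for 6 to 8 of 9 on the transduced arrays. Their summed linear signal was 397565 on MEF and 110817 to 210626 on the arrays with virus and no siRNA. On siCtrl and siEp300 it was 476814 and 400498. Cardiomyocyte markers were above the stricter mark for 1 of 10 genes on the MEF array and for 6 or 7 of 10 on the transduced arrays. Of 10 skeletal muscle markers, only Acta1 was above it on the 5 arrays without siRNA, and Acta1 and Tnnt3 on siCtrl and siEp300. Of the delivered factors, Tbx5 was 5.72 on MEF and 14.82 to 16.23 on the 6 transduced arrays, and Mef2c was 8.24 and 18.32 to 18.87. Gata4 was 4.22 on MEF and 3.57 to 5.09 on the transduced arrays, never above the stricter mark and 2-fold higher on none, so the arrays do not show its delivery. Fewer cells of a type and less RNA per cell cannot be told apart in these bulk samples.

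The myogenic regulatory factors stayed at the low end of the scale with every form of Mef2c. Myod1 had a signal of 3.54 on MEF, 2.94 with isoform 1, 3.23 with isoform 2, 2.97 with isoform 6, 3.21 on GT/M2TAD, 3.39 on siCtrl and 3.43 on siEp300. The MEF array was thus the highest, and the fusion array lay within the range of the native isoforms. Where the Myod1 probes lie relative to the fused domain is not known, so this value does not tell whether the fusion transcript was seen. Myog, the differentiation factor, had signals of 4.16 on MEF, 4.43 with isoform 1, 3.84 with isoform 2, 4.26 with isoform 6, 4.13 on GT/M2TAD, 4.20 on siCtrl and 4.58 on siEp300. GT/M2TAD was 0.28 higher than GT/M2 and 0.30 lower than GT/M1 (log2 difference -0.30). Myf5 had signals of 2.77 on MEF, 2.59 with isoform 1, 2.58 with isoform 2, 2.95 with isoform 6, 2.67 on GT/M2TAD, 2.24 on siCtrl and 2.60 on siEp300, with no array standing apart. Myf6 had signals of 2.87 on MEF, 2.42 with isoform 1, 2.63 with isoform 2, 2.78 with isoform 6, 3.21 on GT/M2TAD, 3.29 on siCtrl and 2.76 on siEp300. Its GT/M2TAD value was above all 3 native isoforms, by 0.57 against GT/M2, but below siCtrl and with siEp300 inside the native range.

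Pax7, a marker of the satellite cells that regenerate muscle, had signals of 3.55 on MEF, 3.46 with isoform 1, 3.42 with isoform 2, 3.76 with isoform 6, 2.91 on GT/M2TAD, 3.46 on siCtrl and 4.05 on siEp300. GT/M2TAD was its lowest array and siEp300 its highest. Of 9 measured regulators that act upstream of the myogenic factors, Pax7 included, 1 was 2-fold higher on GT/M2TAD than on GT/M2 and 0 lower. This was Eya4, a transcriptional coactivator, at 6.05 against 5.0, both below the stricter mark. Of all named genes, 2.96% were higher and 3.33% lower in that comparison. Compared with MEF, none of the 9 was higher on the fusion array and 3 were lower, beside 14% and 9.5% of all named genes. The 3 were Eya1, lower by at least 7.5-fold, the receptor gene Met, by at least 1.26-fold, and Eya4, whose signals were both below the stricter mark. Pax3, the close relative of Pax7, was 8.93 on MEF and between 7.58 and 8.23 on the 6 transduced arrays.

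Of the receptor subunits, 1 lay above the gene median on every array and 3 lay below it on every array. Chrna1 encodes the subunit that binds acetylcholine. It had signals of 3.43 on MEF, 2.61 with isoform 1, 2.38 with isoform 2, 2.82 with isoform 6, 2.97 on GT/M2TAD, 2.62 on siCtrl and 3.30 on siEp300, highest in untreated fibroblasts. Chrnd had 2.37 on MEF, 2.70 with isoform 1, 2.80 with isoform 2, 2.28 with isoform 6, 2.61 on GT/M2TAD, 2.70 on siCtrl and 3.0 on siEp300. Chrng, the subunit of the fetal receptor, had 2.98 on MEF, 2.46 with isoform 1, 2.92 with isoform 2, 3.08 with isoform 6, 3.05 on GT/M2TAD, 2.91 on siCtrl and 2.60 on siEp300. For both genes the GT/M2TAD value lay within the range of the 3 native isoforms. Chrne, the subunit that replaces Chrng in the adult receptor, stayed between 2.63 and 3.48 over the 7 arrays.

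Chrnb1, which encodes the beta subunit, was the exception. Its signal was 6.35 on MEF, 6.70 with isoform 1, 6.90 with isoform 2, 7.47 with isoform 6, 8.09 on GT/M2TAD, 8.62 on siCtrl and 8.54 on siEp300. MEF was the lowest array, the native isoforms came next, and the 3 arrays whose source names give the MyoD domain were the 3 highest, without overlap. Neighbours in this order differed by 0.09 (siCtrl and siEp300) to 0.62 (GT/M2TAD and GT/M6), and with single arrays no neighbour can be said to differ. The log2 difference of GT/M2TAD was 1.19 from GT/M2, 1.39 from GT/M1 and 0.62 from GT/M6, so the size rule was met against isoforms 1 and 2 and not against isoform 6. Of the 10 genes Chrnb1 was the only one called against GT/M1, where 3.54% of all named genes were higher and 2.79% lower, and 0 were called against GT/M6, where 2.5% were higher and 2.57% lower. The other 9 lay below the gene median on every array, so the size rule could call none of them. Chrnb1 exceeded the 95th percentile of negative-control probes only on siCtrl and siEp300. Those marks, 8.43 and 8.52, were the lowest, against 8.81 to 9.33 on the other arrays, and the margin on siEp300 was narrow. The highest Chrnb1 signal, 8.62, would not have reached the mark of any other array. For GT/M2TAD and GT/M2 the comparison of Chrnb1 stays below the mark. As both of these signals lay below it, no fold is given for them.

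The promoters of 3 subunit genes and of Myog are shown because the subunits join in 1 receptor while only Chrnb1 was called, and because myogenic factors act through the E-box. Each runs from 250 bases before the start site to 50 after it, from RefSeq on GRCm38.p6, and capitals mark every match to the E-box CANNTG, which reads the same on both strands. They are Chrnb1 (chr11:69795888-69796187, minus strand), Chrna1 (chr2:73580289-73580588, minus strand), Chrng (chr1:87205561-87205860, plus strand) and Myog (chr1:134289754-134290053, plus strand).
Chrnb1: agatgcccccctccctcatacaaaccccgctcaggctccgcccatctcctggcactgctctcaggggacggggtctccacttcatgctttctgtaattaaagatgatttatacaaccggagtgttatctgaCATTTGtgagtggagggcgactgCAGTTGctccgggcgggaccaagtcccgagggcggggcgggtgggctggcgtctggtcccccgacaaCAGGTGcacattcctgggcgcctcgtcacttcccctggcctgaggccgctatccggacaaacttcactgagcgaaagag
Chrna1: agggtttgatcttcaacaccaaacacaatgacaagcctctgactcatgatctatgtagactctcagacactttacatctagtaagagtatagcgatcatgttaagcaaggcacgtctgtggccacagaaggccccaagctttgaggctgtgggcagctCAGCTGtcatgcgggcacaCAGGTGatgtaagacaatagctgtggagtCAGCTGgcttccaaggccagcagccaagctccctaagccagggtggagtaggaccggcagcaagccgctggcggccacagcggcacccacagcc
Chrng: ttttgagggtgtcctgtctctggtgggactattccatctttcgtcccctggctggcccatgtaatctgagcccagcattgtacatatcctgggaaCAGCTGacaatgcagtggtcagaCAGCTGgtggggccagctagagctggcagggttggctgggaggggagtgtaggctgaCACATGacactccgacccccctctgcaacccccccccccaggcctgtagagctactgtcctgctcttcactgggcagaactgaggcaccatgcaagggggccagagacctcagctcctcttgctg
Myog: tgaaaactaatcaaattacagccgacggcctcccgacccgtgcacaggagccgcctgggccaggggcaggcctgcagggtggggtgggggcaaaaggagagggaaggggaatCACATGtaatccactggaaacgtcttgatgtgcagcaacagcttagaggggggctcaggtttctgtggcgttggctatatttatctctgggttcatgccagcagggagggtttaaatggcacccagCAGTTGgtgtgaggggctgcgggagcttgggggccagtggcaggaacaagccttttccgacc

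Chrnb1, Chrna1 and Chrng each held 3 E-boxes, a number reached by 17.6% of 32851 windows of the same length, and Myog held 2, reached by 39.6%. At least 1 E-box was present in 72.3% of all windows. The form CAGCTG occurred 2 times in Chrna1, 2 times in Chrng, and 0 times in Chrnb1 and in Myog, while 16.3% of all windows held it. Counting the start site as 0, the E-boxes began at -119, -96 and -29 in Chrnb1, at -92, -73 and -44 in Chrna1, and at -155, -132 and -75 in Chrng. Of the 7 members matched in the promoter table, Cav3 had 2 E-boxes, 1 of them CAGCTG, and Myf5 and Pax7 had 0. The MEF2 consensus, searched on both strands, had 0 matches in these 7 windows and was present in 3.2% of all windows. A site that departs from the consensus letters is not counted, so this does not show that a window lacks a MEF2 site. The E-box and MEF2 counts are matches of letters, not measured binding.

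Cav3 encodes the caveolin of muscle membranes. Its signal was 4.06 on MEF, 3.68 with isoform 1, 3.60 with isoform 2, 3.69 with isoform 6, 3.69 on GT/M2TAD, 4.24 on siCtrl and 4.47 on siEp300. The 4 arrays with virus and no siRNA were the lowest and the siRNA arrays the highest, with MEF between them and every value below the gene median. Taking Cav3 with Myod1, Myog, Myf5, Myf6, Chrna1, Chrnd, Chrng and Pax7, 63 values over 9 genes lay between 2.24 and 4.58. None reached its array's gene median or the median of the negative-control probes, and the highest of them exceeded 43.7% of those probes. Of all named genes, 43.8% likewise lay below the gene median on every array. The size rule asks for that median, so it could call none of the 9 genes in any comparison. Between GT/M2TAD and GT/M2 the differences of these 9 genes ranged from -0.51 for Pax7 to 0.59 for Chrna1. Signals this close to background understate differences in transcript, so a low level of these RNAs is not shown to be equal between arrays.

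**Figure D1:**
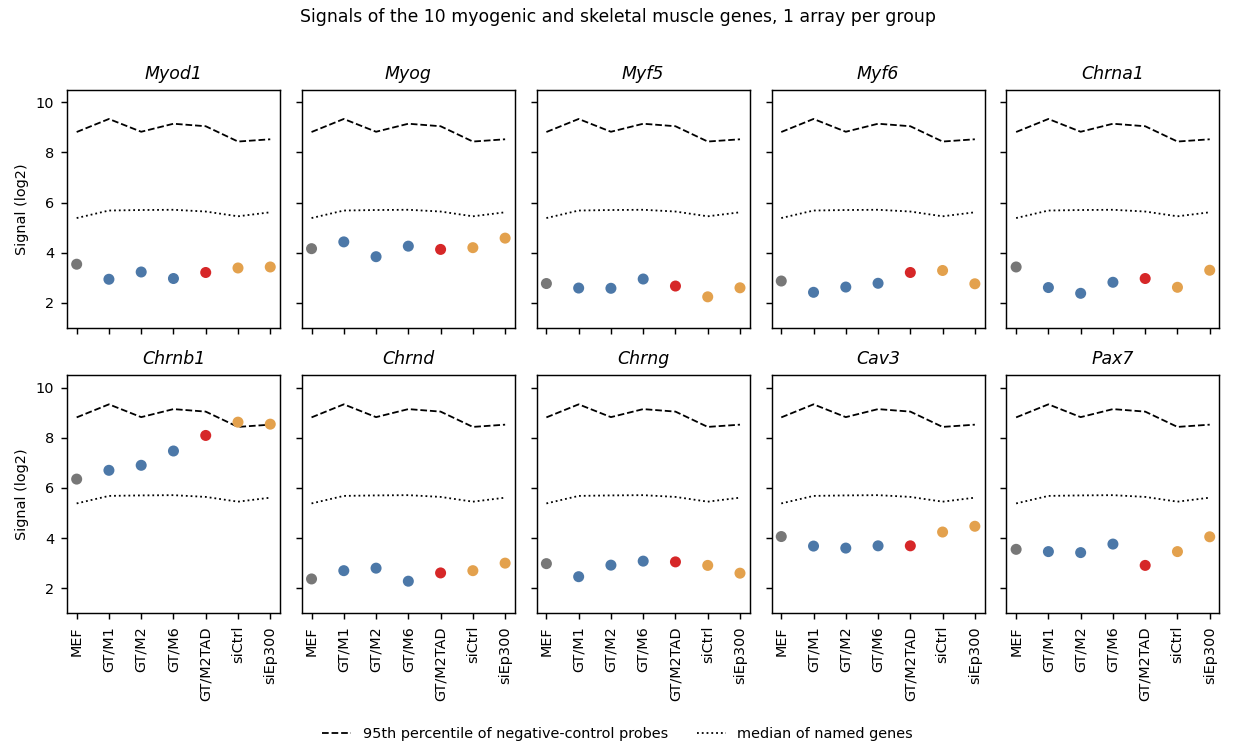
Signal (log2) of the 10 genes on the 7 arrays, 1 point per array: grey for MEF, blue for the native isoforms, red for GT/M2TAD and orange for the siRNA arrays. The dashed line is each array's 95th percentile of negative-control probes and the dotted line the median of its named genes; 9 genes stay below the dotted line on every array, and Chrnb1 runs from 6.35 on MEF to 8.62 on siCtrl.

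Whether the MyoD domain brought skeletal genes was asked first of GT/M2TAD against GT/M2. Of the 10 genes, 1 was 2-fold higher, Chrnb1, and 0 were lower, where 2.96% of all named genes were called higher and 3.33% lower. Only Chrnb1 reached the gene median on any array, so each count by the size rule over the 10 rests on it alone. The median difference over the 10 was 0.11, and over all genes 0.002. No gene of the 10 lay 2-fold outside the range of the 3 native isoform arrays, where 1.28% of named genes lay above and 1.09% below that range. Without the GT/M6 array, Chrnb1 alone did. Among the native isoforms themselves, 0 of the 10 were called between GT/M2 and GT/M1 (1.90% of all genes higher, 1.39% lower), GT/M6 and GT/M1 (0.646% and 0.292%) or GT/M6 and GT/M2 (1.85% and 1.71%). Of all genes called between GT/M2 and GT/M1, 57.7% were higher, and 46.5% after quantile normalization.

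Against untreated fibroblasts, which all 6 comparisons share, Chrnb1 alone of the 10 could be called, the other 9 being below the gene median. Its log2 difference from MEF was 0.35 with isoform 1, 0.55 with isoform 2, 1.12 with isoform 6, 1.74 on GT/M2TAD, 2.27 on siCtrl and 2.19 on siEp300, so it met the size rule on the last 4 of these. The share of all named genes called higher was 12.5%, 13.6%, 13%, 14%, 10.9% and 13.4% in the same order, and the share called lower 9.52%, 8.34%, 8.79%, 9.5%, 10.9% and 9.29%. The higher genes made up 56.8% of all called genes with isoform 1, 61.9% with isoform 2, 59.7% with isoform 6, 59.6% on GT/M2TAD and 59.1% on siEp300. After median centring these shares were 41.9%, 46.8%, 43.1%, 47.5% and 47.8%, as that scaling moved the median of all genes from between 0.07 and 0.12 to between -0.25 and -0.11. The GT/M6 call was lost after median centring, quantile normalization and level-dependent centring. Without the floor on low values, Chrna1 on GT/M2 was also 2-fold apart, at -1.06.

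The wider skeletal programme was read from 11 lists that hold 95 measured genes besides the 10. These lists are not limited to genes particular to skeletal muscle, and 24 of the 95 exceeded the stricter mark on untreated MEFs. A higher list gene thus does not by itself mark skeletal muscle. On GT/M2TAD, 9 of the 95 were 2-fold higher than on GT/M2 and 4 were lower, with a median difference of 0.17. Of all named genes, 2.96% were higher and 3.33% lower, which is the background for each list count in this comparison. The higher genes were Ache, Agrn, Nrg1, Dysf, Sntb1, Sspn, Itga7, Myl1 and Eya4. Of 11 genes of the neuromuscular junction, 3 were higher: Ache, the enzyme that breaks down acetylcholine, Agrn, which encodes agrin, the organiser of receptor clusters, and the neuregulin gene Nrg1. Ache had signals of 3.44 on MEF, 7.07 with isoform 1, 6.57 with isoform 2, 6.74 with isoform 6, 9.80 on GT/M2TAD, 7.15 on siCtrl and 8.05 on siEp300. GT/M2TAD stood above every other array, and was at least 1.97-fold higher than GT/M2 when the GT/M2 value is raised to the 95th percentile of negative-control probes. Agrn was 9.30 on GT/M2TAD against 8.22 on GT/M2, but 9.63 on GT/M1 and 9.71 on GT/M6, so GT/M2 was the only native isoform below it. Nrg1 was 9.5 against 8.22, with 11.49 on MEF, 9.97 on GT/M6 and 12.60 on siCtrl. The junction genes Musk and Rapsn, for the receptor kinase and the scaffold of the receptor cluster, stayed between 3.13 and 3.73 and between 3.64 and 4.36 over the 7 arrays.

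In the list of the dystrophin complex and membrane repair, 3 of 10 were higher and 1 lower. Dysf encodes dysferlin, which acts in repair of the muscle membrane. Its signal was 7.14 on MEF, 8.0 with isoform 1, 6.56 with isoform 2, 8.34 with isoform 6, 9.86 on GT/M2TAD, 11.31 on siCtrl and 10.76 on siEp300. All 3 of the last arrays lay above the native isoforms, and GT/M2TAD was at least 2.05-fold above GT/M2 by the same bound. Sntb1, a syntrophin gene, was 11.62 on GT/M2TAD against 9.93 to 10.52 on the native isoforms, with 9.70 and 10.23 on siCtrl and siEp300. Sspn, which encodes sarcospan, was 10.66 against 9.34 to 9.60, with 10.16 and 9.90 on siCtrl and siEp300. Trim72, another repair gene, was lower than on GT/M2 at -1.02, yet its 9.06 was above the 8.12 of GT/M1 and the 8.63 of GT/M6. After median or level-dependent centring Trim72 no longer met the rule. With MEF as the comparator, 7 of these 10 exceeded 2-fold on the fusion array and none was lower, among them Sgcb at 4.55 and Dag1, which encodes dystroglycan, at 2.68. Beside this, 14% of all named genes were higher and 9.5% lower. The native isoforms gave similar counts against MEF, with 5 higher and 1 lower on GT/M1, 6 and 0 on GT/M2, and 7 and 0 on GT/M6, and Dag1 at 2.69 to 3.0.

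In the list of myoblast fusion and adhesion, 1 of 13 was higher. This was Itga7, the integrin that binds laminin on muscle fibres, which is also on the list of satellite cell markers. Its signal was 5.79 on MEF, 6.66 with isoform 1, 7.38 with isoform 2, 7.33 with isoform 6, 9.94 on GT/M2TAD, 10.38 on siCtrl and 10.47 on siEp300. The last 3 arrays did not overlap with the others, and GT/M2TAD was at least 2.17-fold above GT/M2. The fusion genes Mymk and Mymx stayed between 3.41 and 5.20 and between 3.57 and 4.17, below the gene median on every array. Cdh15, the cadherin of myoblasts, stayed between 3.08 and 4.11. Of 8 satellite cell markers, Itga7 was higher and Vcam1 lower, at -1.29. Of 7 caveolar genes, 0 were higher and Cavin2 was lower, at -1.89. Against MEF, Cav1, the caveolin of fibroblasts and other non-muscle cells, was lower on GT/M2TAD at -3.41, at least 1.99-fold, and Cavin1 was 1.11 higher.

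**Figure D2:**
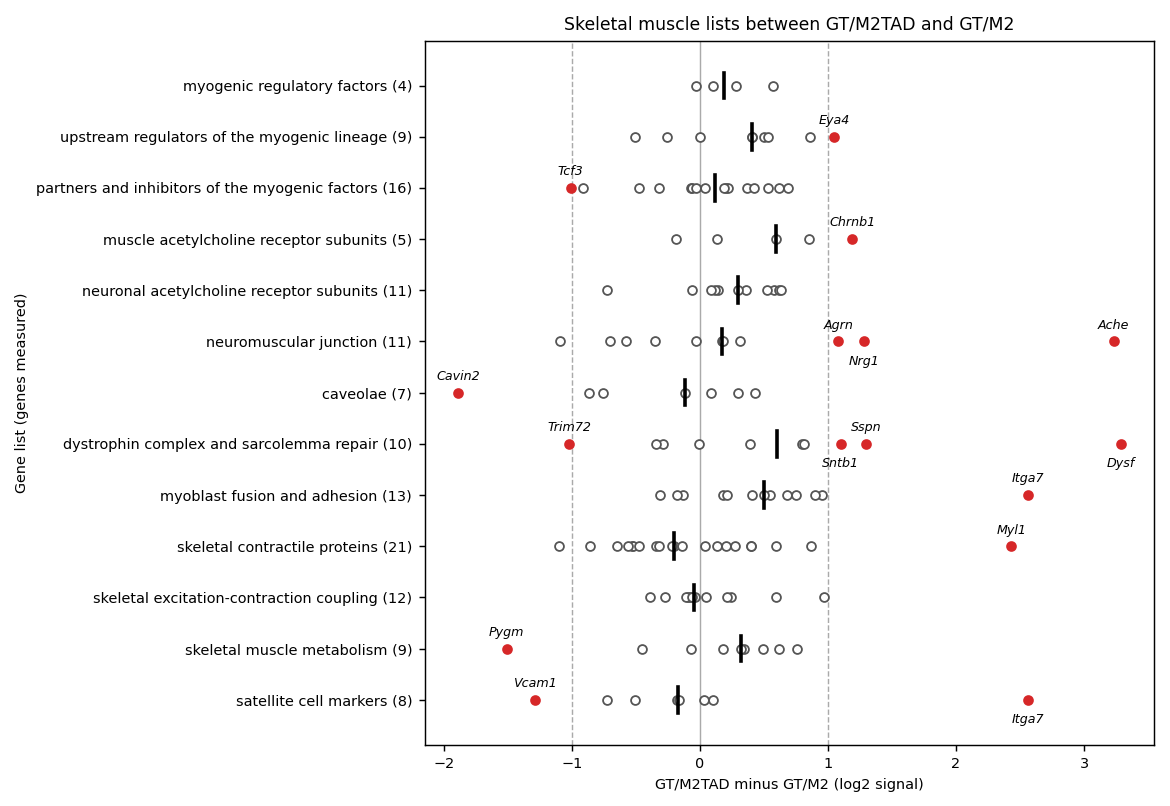
Log2 signal on GT/M2TAD minus that on GT/M2 for the genes of 13 lists, 1 circle per gene, with the median of each list as a black bar. Filled red circles, named, met the size rule; open circles beyond the dashed lines at -1 and 1 had both signals below the gene median. Ache and Dysf are plotted at 3.23 and 3.29, but their GT/M2 signals were below the 95th percentile of negative-control probes, so only the bounds of at least 1.97-fold and 2.05-fold hold. The 4 myogenic factors, all near background, are plotted between -0.03 and 0.57.

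Contractile and calcium genes of skeletal muscle were mostly not called with the domain. Of 21 contractile genes, 1 was higher on GT/M2TAD than on GT/M2 and 0 lower, with a median of -0.20, and of 12 genes of excitation-contraction coupling 0 were called, with a median of -0.05. The exception was Myl1, the alkali light chain of fast muscle. It had signals of 6.85 on MEF, 6.77 with isoform 1, 10.13 with isoform 2, 7.29 with isoform 6, 12.56 on GT/M2TAD, 15.43 on siCtrl and 15.84 on siEp300. Both GT/M2TAD and GT/M2 were above the stricter mark, and their difference of 2.43 is a measured one. GT/M2 was itself at least 1.74-fold above GT/M1, so Myl1 also differed between arrays without the domain. Of 9 genes of muscle metabolism, 1 was lower, the glycogen phosphorylase gene Pygm at -1.51. Ckm, the muscle creatine kinase, lay between 7.07 and 7.68 on all 7 arrays. Myh4, the fast myosin heavy chain, lay between 3.37 and 4.0, Ryr1, the skeletal calcium release channel, between 2.43 and 3.18, and Cacna1s, its voltage sensor, between 3.18 and 3.90.

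Across the 95 genes, 6 lay 2-fold above the range of all 3 native isoforms on GT/M2TAD, namely Ache, Dysf, Itga7, Myl1, Sntb1 and Sspn, and 2 lay below it, Cavin2 and Vcam1. Without the GT/M2 array 7 lay below, and no share of all genes is given for that count. Of all named genes, 1.28% lay above the range of the 3 native isoforms and 1.09% below. When all 3 arrays with the domain in their source names had to lie beyond that range, a rule added after the data were seen, Dysf, Itga7 and Myl1 were above it and 0 below, where 0.656% of all genes were above and 0.769% below. This rule assumes that the source names are right, and siRNA treatment cannot be told apart from the domain on the siCtrl and siEp300 arrays. Other muscle markers differed between the same arrays. Of 8 smooth muscle markers, 5 were higher on GT/M2TAD than on GT/M2 and 0 lower, with a median of 1.69, and their summed linear signal was 333343 on GT/M2 and 552813 on GT/M2TAD. Of 10 cardiomyocyte markers 2 were higher and 4 lower, with sums of 381895 and 856758. On MEF the sums were 1158464 for smooth muscle markers, above both other arrays, and 1146 for cardiomyocyte markers. No marker of either list was listed at 0. The part of cells expressing these markers in the skeletal list differences was not tested.

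**Figure D3:**
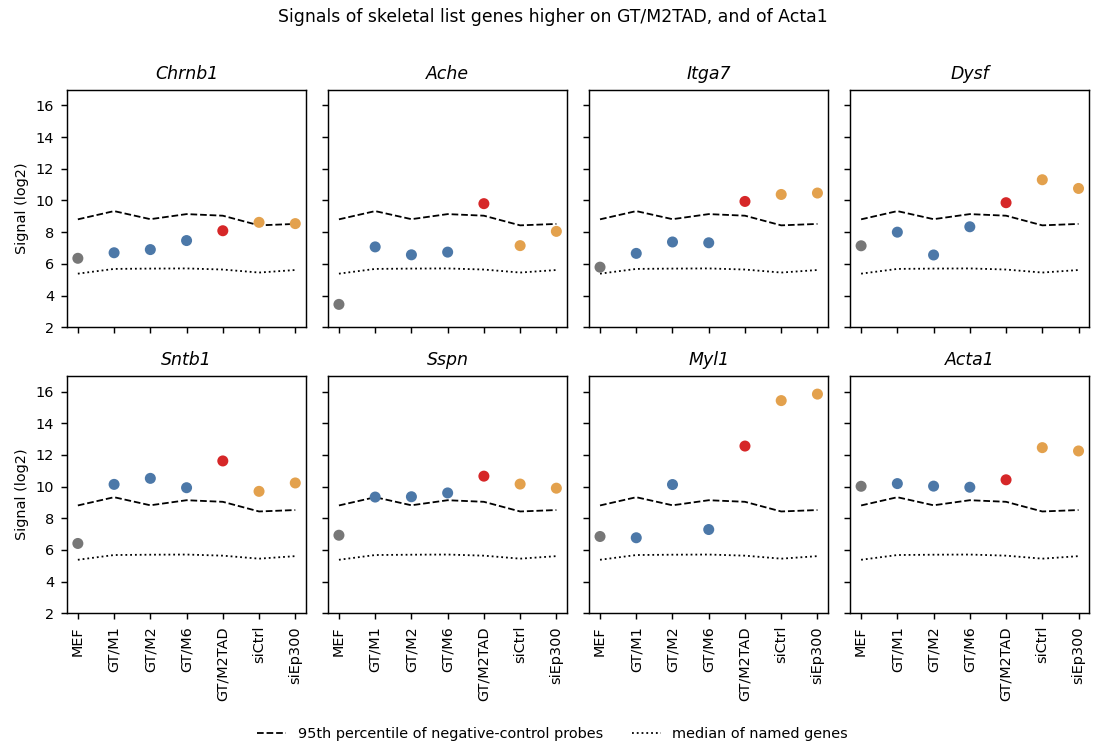
Signal (log2) on the 7 arrays, 1 point per array, of Chrnb1, of the 6 list genes above the native isoforms on GT/M2TAD, and of Acta1; colours and lines are those of the plot of the 10 genes. Every gene shown except Sntb1 has its 3 highest points on GT/M2TAD, siCtrl and siEp300. For Ache the margin is narrow, at 7.15 on siCtrl against 7.07 on GT/M1. Ache, Sntb1 and Sspn are highest on GT/M2TAD.

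The summed linear signal of the contractile list was 51684 on siCtrl and 65083 on siEp300, against 8180 on GT/M2TAD, with most of it from Myl1 on these arrays, and 1699 to 3100 on the other 4. Genes named here were picked from the siCtrl comparisons after their values were seen. Of the 21 contractile genes, 9 were 2-fold higher on siCtrl than on MEF and 0 lower, and 9 were higher and 1 lower on siCtrl than on GT/M2TAD. The background shares were 10.9% higher and 10.9% lower against MEF, and 3.04% higher and 6.38% lower against GT/M2TAD. The higher genes were the same 9 in both: Myh1, Myh2, Myh3, Myh8, Myl1, Mylpf, Tnnt3, Acta1 and Mybph. Acta1, skeletal alpha-actin, was 10.02 on MEF, between 9.96 and 10.19 on the native isoforms, 10.43 on GT/M2TAD, 12.46 on siCtrl and 12.25 on siEp300. The fast troponin T gene Tnnt3 was 6.32 on MEF, 5.91 to 6.68 on the native isoforms, 6.04 on GT/M2TAD, 9.26 on siCtrl and 9.21 on siEp300, and siCtrl was at least 1.16-fold above GT/M2TAD. Myh8, the perinatal myosin heavy chain, was 4.88 on MEF, 5.27 on GT/M2TAD, 8.14 on siCtrl and 7.78 on siEp300, all below the stricter mark. Casq1, the calsequestrin of fast muscle, was 4.96, 5.62, 8.97 and 8.80 on the same 4 arrays. Tnni1, slow troponin I, went the other way, at 8.05 on GT/M2TAD and 5.82 on siCtrl.

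Of the 10 genes, 0 were called between siCtrl and GT/M2TAD, where Chrnb1 differed by 0.53. Of all named genes, 3.04% were higher and 6.38% lower there, the background for each count between siCtrl and GT/M2TAD. Between siCtrl and GT/M2 Chrnb1 was called at 1.73 and 0 were lower, beside 5.30% higher and 11.2% lower of all genes. Of all genes called between siCtrl and GT/M2TAD, 32.2% were higher on siCtrl, and 51.7% after quantile normalization. Against GT/M2 the shares were 32.2% and, after the same step, 50%. Markers of other cell types differed between the same arrays. Of 9 fibroblast markers 6 were higher and 1 lower on siCtrl than on GT/M2TAD, with summed linear signals of 476814 and 131068, and of 8 smooth muscle markers 5 were higher and 0 lower, with sums of 982545 and 552813. On MEF the sums were 397565 for fibroblast and 1158464 for smooth muscle markers. The part of cells expressing these markers in the contractile differences was not tested.

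**Figure D4:**
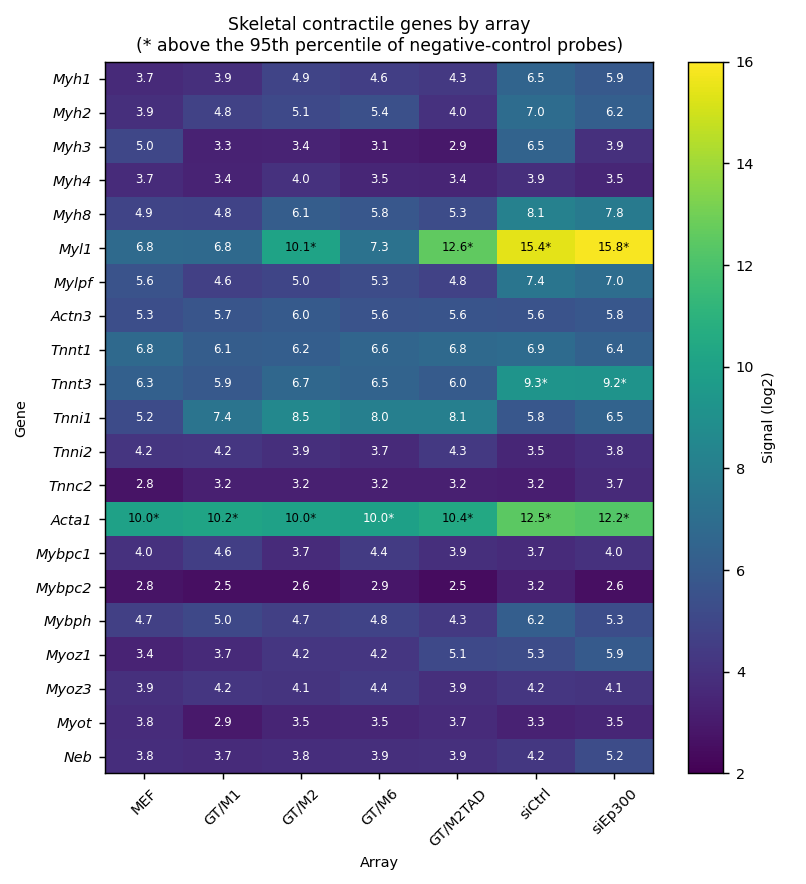
Signal (log2, colour and number) of the 21 skeletal contractile genes on the 7 arrays; an asterisk marks values above the array's 95th percentile of negative-control probes. Only Myl1, Tnnt3 and Acta1 carry an asterisk on any array, and both siRNA arrays are brighter than the others in the myosin heavy chain genes Myh1, Myh2 and Myh8.

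Between siEp300 and siCtrl, 0 of the 10 genes were called in either direction, beside 1.93% of all genes higher and 0.390% lower. Of the 10, only Chrnb1 reached the gene median and could be called. Of all called genes, 83.2% were higher on siEp300, and 48.9% after quantile normalization, while the median of all genes moved from 0.14 to 0. Chrnb1 differed by -0.09, Myog by 0.37, Myod1 by 0.05, Myf5 by 0.36 and Myf6 by -0.53. Chrna1 showed the largest difference of the 10, at 0.68, between signals of 3.30 and 2.62. Of the 95 other skeletal genes, 1 was higher and 1 lower. The dystrophin gene Dmd had 8.47 with the Ep300 siRNA and 7.43 with the control, and their difference of 1.04 became 0.83 after quantile normalization. Myh3, the embryonic myosin heavy chain, was 3.93 and 6.48 in the same order (-2.55). All 4 signals lay below the 95th percentile of negative-control probes. Itga7 and Myl1, by contrast, were above it on both arrays, with differences of 0.08 and 0.41. Ep300 itself was 9.47 on siEp300, 9.90 on siCtrl and 9.87 to 10.22 on the other 5 arrays. It was lowest on siEp300 but did not meet the size rule against siCtrl, so a 2-fold loss of its RNA is not shown. The p300 protein was not measured.

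Partners and inhibitors of the myogenic factors were measured on the same arrays. Of 16 such genes, 0 were higher on GT/M2TAD than on GT/M2 and 1 was lower, the E protein gene Tcf3 at -1.01, which fell short of 2-fold after each rescaling (-0.93 to -0.95). Against MEF, 2 were higher on GT/M2TAD and 7 lower, beside 14% and 9.5% of all named genes. On the native isoforms 1 was higher and 6 to 8 were lower. Smarcd3, a chromatin remodelling subunit used by MyoD, was 2.80 higher on GT/M2TAD and 2.76 to 3.05 higher on the native isoforms. Mef2d was 1.15 higher on GT/M2TAD and 0.46 to 0.53 higher on the native isoforms, where it was not called. On siCtrl it was 1.07 higher than on MEF and called, and on siEp300 0.47 higher and not called. Among the genes lower on GT/M2TAD than on MEF were the Id genes, whose products sequester E proteins. Id2 at -3.08 and Id3 at -2.04 were above the stricter mark on both arrays. Id1 was at least 6.16-fold lower and Tcf3 at least 2.02-fold lower, as only their MEF signals exceeded that mark. Snai1, Twist2 and Hey1 were also called lower, with both signals below the mark, and no fold is given. Id3 had signals of 11.66 on MEF, 9.73 with isoform 1, 9.93 with isoform 2, 9.17 with isoform 6, 9.61 on GT/M2TAD, 6.28 on siCtrl and 7.95 on siEp300. It was lowest on siCtrl, and siEp300 was 1.66 higher, with both of these signals below the stricter mark. Id2 was likewise 1.37 higher on siEp300, at 8.01 against 6.63. The E protein genes Tcf4 and Tcf12 stayed above 12 on every array, between 13.79 and 14.90 and between 12.22 and 13.09.

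Chrnb1 was the only one of the 10 to exceed the 95th percentile of negative-control probes on any array and to range over at least 1, so the genes most like it were sought among 4851 others that met both conditions, leaving out symbols of predicted genes and Riken clones. Pearson's r over the 7 arrays was highest for Tent5a at 0.993, Pea15a at 0.987, Aff4 at 0.987, Elf4 at 0.981 and Sat1 at 0.979. Tent5a, like Chrnb1, was lowest on MEF at 6.70 and highest on siCtrl at 10.04, with 9.12 on GT/M2TAD. An r of at least 0.9 was reached by 167 genes. Skeletal list genes among the 167 were Itga7 with r of 0.974, Dysf with 0.940, Jam3 with 0.912 and Myl1 with 0.909. The other skeletal list genes compared ran from 0.84 for Casq1 down to -0.945 for Sdc4, with Cavin3 at -0.933. Ache at 0.689 and Sntb1 at 0.52 were among these. Itga7, Dysf and Myl1 are also the genes above the native range on GT/M2TAD, siCtrl and siEp300, so their r is not separate support. Chrnb1 met the first condition only through siCtrl and siEp300, where it was highest, and its other 5 values lie below the stricter mark. On siEp300 its margin over that mark was narrow, 8.54 against 8.52. These 7 points are single arrays that share their processing, and the values describe them only.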

How the data were processed

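Per the series text, the authors normalized the arrays by SST-RMA, with Affymetrix Expression Console 1.4 per the submitters' processing notes, and deposited log2 signals; that the base is 2 was judged from their range. Settings and genome build are not given in the sources used here. RNA with an integrity number above 7 was labelled from 100 ng, per the labels' protocols. Of 28846 probe sets, 19572 had 1 gene symbol, 0 had several and 9274 had none. For 55 genes with several sets, the set with the highest mean was used. The number of arrays, 1 per group, limits the precision.

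Differences, counts and medians were computed in Python 3.11.15 with pandas 2.3.3, and level-dependent centring used lowess (fraction 0.4, statsmodels 0.14.6). The calling rule was run on simulated arrays with a chosen noise and shifts larger than its threshold. This checks the code only and gives no error rate for the real arrays. The members and the 13 lists were chosen with earlier results of these data known. Where 1 of 2 signals exceeded the 95th percentile of negative-control probes, an "at least" fold sets the brighter value against the higher of the dimmer value and that percentile on its array. Named were the 10 genes on every array, the list genes called in GT/M2TAD against GT/M2, GT/M2TAD against MEF or siEp300 against siCtrl, some of which stand in counts only, otherwise examples of each list, and the 5 genes most like a member. Examples below 2-fold, siCtrl comparisons and defining markers were added after values were seen. Some list genes are not reported here. Promoter windows were those of RefSeq on GRCm38.p6, from which 7 members matched.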

Additional observations from a re-analysis of the deposited data

How the results depend on the processing

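Each count was recomputed after median centring, quantile normalization and level-dependent centring, without the floor, with the floor at the 95th percentile of negative-control probes, with the mean of all probe sets and with a 1.5-fold rule. Level-dependent centring, made for pairs, was not run on ranges over 3 arrays. No paired analysis was possible because each group has 1 array. For the 10 genes, the higher floor left 0 higher in GT/M2TAD against GT/M2, against MEF, and in GT/M6 against MEF, where all 3 scalings also left 0. No floor gave 1 lower in GT/M2 against MEF. The 1.5-fold rule gave 1 higher in GT/M6 against GT/M1 and 1 above the native range on GT/M2TAD; leaving out 1 native array gave 0 to 1. For the 95 list genes in GT/M2TAD against GT/M2, the 1.5-fold rule gave 16 higher and 10 lower, and siCtrl in place of GT/M2TAD 19 and 12. In siEp300 against siCtrl, each of the 3 scalings gave 0 higher and 2 lower, the higher floor 0 and 0, and the 1.5-fold rule 5 and 4. Below the native range on GT/M2TAD, the higher floor gave 1, the 1.5-fold rule 6, and leaving out 1 native array 2 to 7, the 7 without GT/M2. Requiring siCtrl and siEp300 as well, chosen after seeing the data, gave 3 above and 0 below. In settings added after seeing the data for 2 further comparisons, the higher floor left 0 of the 10 higher in GT/M2TAD against GT/M1, and the 1.5-fold rule gave 1 higher against GT/M6. The cause of these shifts was not tested beyond what each setting removes. No called difference of the 10 genes changed sign. Signals near background limit 9 of the 10 genes, which the floor at the gene median kept from any call.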
